A study of Mus musculus with 15 samples.

Results

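PreSertoli-specific open regions with H3K27ac are stretches of DNA that were hypersensitive to nuclease in fetal preSertoli cells at both stages examined, had no DNase-seq peak in 6 other cell types, and overlapped a domain of acetylated histone H3 lysine 27 in preSertoli cells. They were chosen by joining all touching or overlapping peaks of the 8 deposited DNase-seq lists, keeping the joined regions with a peak in both preSertoli lists (embryonic days E13.5 and E15.5) and in no other list, and then keeping those that shared 1 bp or more with an H3K27ac domain. The rule left 3726 of 237612 joined regions. Of the 10165 preSertoli-specific regions, 3726 (36.7%; Wilson 95% interval 35.7 to 37.6) passed the H3K27ac step, and the other 6439 serve below as the nearest comparison. Over all joined regions 16.1% overlapped an H3K27ac domain, and over the 55192 regions open at both preSertoli stages 40.2% did. Because DNase peaks and H3K27ac domains chose the regions, those shares are a description of the choice, and no test is attached to them.

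PreSertoli cells surround the germ cells of the developing testis, build the testis cords and secrete hormones that act in male development. Their identity is set by transcription factors such as SRY, SOX9, DMRT1, GATA4 and NR5A1, which bind promoters and distant enhancers. Nuclease-hypersensitive sites mark DNA freed of nucleosomes by bound factors, and H3K27ac on the flanking nucleosomes marks promoters and enhancers in an active state. Open regions that carry this mark and are absent from unrelated cell types are the usual starting set for cell-type enhancers, while enhancer function itself needs a separate assay.

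DNase-seq was available from 1 library per cell type. For both stages, preSertoli cells were sorted from the testes of male embryos heterozygous for a Sox9-ECFP transgene, bred from C57BL/6J fathers and CD-1 mothers. The other libraries came from cultured JM8 embryonic stem (ES) cells, a skin fibroblast culture of adult C57BL/6J mice, and whole adult brain, heart, kidney and liver of the same strain. H3K27ac ChIP-seq covered 2 libraries of E13.5 preSertoli cells with 2 inputs, deposited as 1 list of domains, and RNA-seq 3 pools of E15.5 preSertoli cells, both from the same strain cross. In preSertoli cells the chromatin was cut by the cells' own nucleases, whereas the other 6 libraries used added DNase I, so cell type and cutting method cannot be told apart. Whole organs mix cell types, and a region open in a rare cell of an organ can lack a peak there. The E13.5 list held 88107 peaks, the E15.5 list 81467 and the other 6 lists 62218 to 96536. The number of reads behind each list is unknown.

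The RNA-seq libraries were compared with marker lists of the labelled cell type and of others. The gene lists were chosen with earlier results of these data known, so the counts are a description and no independent check of the label. All 29 genes of a list of Sertoli secreted and effector genes reached a level of 1 CPM (counts scaled to a common library total) in all 3 libraries, against 47.1% of the 27697 genes measured. Of 18 gonadal transcription factors, 15 did, with Sox9 at 260 ± 37.0 CPM, Gata4 at 745 ± 17.6 CPM and Dmrt1 at 128 ± 0.876 CPM (SD, n = 3). Sry, the Y-linked trigger of testis formation, stood below that level, at a mean of 0.0189 CPM. Of the markers of granulosa cells, the female counterpart, 4 of 8 reached 1 CPM. The list summed to 59.97 to 64.0 CPM per library, and most of that was Lgr5, at a mean of 53.0 CPM. Esr2 stood at 4.63 CPM and Foxl2 at 0.0687 CPM. All 7 markers of fetal Leydig cells, the androgen-producing cells outside the cords, reached 1 CPM and summed to 1376 to 2205 CPM. Their means ran from 18.9 CPM (Lhcgr) to 677 CPM (Cyp17a1), and Cyp17a1, Cyp11a1 (382 CPM) and Star (294 CPM) stood above Sox9. Interstitial and peritubular markers reached 1 CPM in 6 of 6 cases (209 to 262 CPM summed) and fibroblast markers in 2 of 4 (162 to 314 CPM). The interstitial markers Nr2f2 and Tcf21 are also counted among the 15 transcription factors. Germ cell markers reached that level in 6 of 8 cases (44.4 to 61.4 CPM), endothelial markers in 3 of 5 (29.3 to 31.5 CPM), and blood and macrophage markers in 2 of 3 (21.3 to 32.5 CPM). Of 4 markers each, ES cells, kidney and heart had 1 at that level, and brain and liver had 0. Whether chromatin of Leydig or other interstitial cells added to the DNase and H3K27ac lists was not tested.

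The regions are described by position in mouse build mm9, the build of the deposited lists. An mm9 gene annotation or genome sequence was not used here, so no region is tied to a gene, a promoter or a sequence motif.

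The 3726 regions covered 1.89 Mb in all. Their median width was 455 bp (quartiles 337 and 615, range 58 to 2333 bp), above the 359 bp (268 and 475) of preSertoli-specific regions without the mark. Regions with H3K27ac that were open in all 8 lists were wider still, at a median of 1307 bp. Those regions join peaks of 8 lists, and the preSertoli-specific ones join peaks of 2.

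Each peak carries a score and a signal height from the authors. The place of a region in a list is given here as a percentage of that list counted from its strongest peak, so that a low figure means a strong peak. The marked regions had a median place of 48.3% in the E13.5 list (quartiles 32.0 and 68.5) and 44.2% in the E15.5 list (28.3 and 63.4). The unmarked preSertoli-specific regions lay lower, at 60.1% (42.3 and 78.3) and 57.6% (40.3 and 76.0). Median signal heights were 0.112 at E13.5 and 0.119 at E15.5 with the mark, and 0.0928 and 0.0945 without it. The marked regions were therefore peaks of middle strength, and the quartile ranges of the marked and unmarked regions overlapped broadly.

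Few of the marked regions were among the strongest preSertoli peaks. Of the 3726, 47 (1.26%) lay in the top 10% of the E13.5 list and 129 (3.46%) in the top 10% of the E15.5 list, and 22 (0.590%; Wilson interval 0.390 to 0.892) were in the top 10% of both. The unmarked regions had 2 of 6439 (0.0311%; interval 0.00852 to 0.113) in the top 10% of both. In the top 25% of both lists stood 319 marked regions (8.56%) and 144 unmarked ones (2.24%). In contrast, regions open in all 8 lists with H3K27ac stood far higher, with median places of 8.14% (E13.5) and 10.3% (E15.5).

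The place at one stage and the place at the other were related across the marked regions, with a Spearman rho of 0.471 (n = 3726 regions), and less so across the unmarked ones (0.325, n = 6439). Regions of a list share a library, so these coefficients are descriptive. A better place at E15.5 than at E13.5 was seen in 2178 of the 3726 marked regions (58.5%; interval 56.9 to 60.03) and in 3507 of the 6439 unmarked ones (54.5%; 53.2 to 55.7). The shift was modest, with a median of -4.74 percentage points (E15.5 minus E13.5) with the mark and -2.68 without. Shifts of more than 25 points towards E15.5 occurred in 693 marked regions (18.6%) and shifts of that size towards E13.5 in 442 (11.9%). Among weak peaks, a wide span of places covers a narrow span of signal height. At E13.5 the height of marked regions was 0.0831 at its lower quartile and 0.0624 at its lowest. The upper quartile and the highest value of their places were 68.5% and 99.98%. The H3K27ac domains came from E13.5 cells, and the mark at E15.5 was not analysed here. With 1 library per stage, stage and library cannot be told apart.

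**Figure D1:**
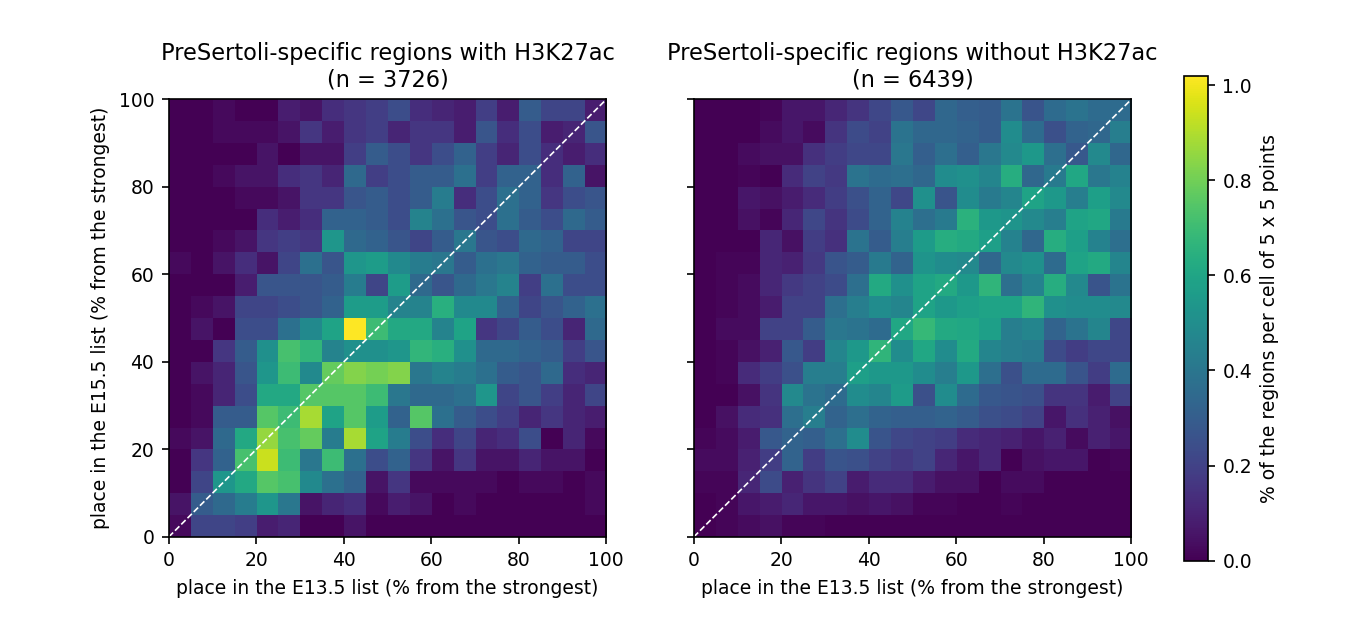
Place of the 3726 preSertoli-specific regions with H3K27ac (left) and the 6439 without (right) in the E13.5 list (horizontal axis) and the E15.5 list (vertical axis), both in % counted from the strongest peak; colour gives the % of each set per cell of 5 by 5 points, and the dashed line marks equal places. The marked regions centre near the middle of both lists, with medians of 48.3% and 44.2%. The unmarked ones lie further towards the weaker end of both, with medians of 60.1% and 57.6%.

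The rule makes the peaks of both stages meet, and the measurements here concern how closely. A single peak per stage made up 3601 of the 3726 marked regions (96.6%), with more than 1 peak at E13.5 in 85 and at E15.5 in 42. In these 3601, the midpoints of the stage peaks were a median of 39.0 bp apart (90th percentile 129.5 bp) and within 50 bp of each other in 2173 (60.3%). The median peak was 346 bp wide at E13.5 and 380 bp at E15.5, and the stretch common to both had a median of 277 bp, or 65.8% of the joined region. In the unmarked regions the midpoints were a median of 34.0 bp apart and the common stretch was 194 bp.

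Peak strength at each stage went with the mark. Among preSertoli-specific regions in the top 25% of both lists, 68.9% (319 of 463; interval 64.5 to 72.9) carried H3K27ac, against 21.7% (184 of 847; 19.1 to 24.6) of those in the last 25% of both. The later stage separated marked from unmarked regions at a fixed place in the earlier list. Among regions in the top 25% at E13.5, the share fell from 68.9% where the E15.5 peak was also in its top 25%, through 49.6% and 41.8%, to 24.5% (13 of 53; 14.9 to 37.6) where it was in the last 25%. Among regions in the last 25% at E13.5, it was 47.8% (33 of 69; 36.5 to 59.4) for those in the top 25% at E15.5, then 34.2%, 25.9% and 21.7%. Taken 1 stage at a time, the share ran from 56.1% to 27.0% over the E13.5 list and from 59.8% to 24.1% over the E15.5 list. The E15.5 place thus spread the shares of an E13.5 mark at least as widely as the E13.5 place did.

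**Figure D2:**
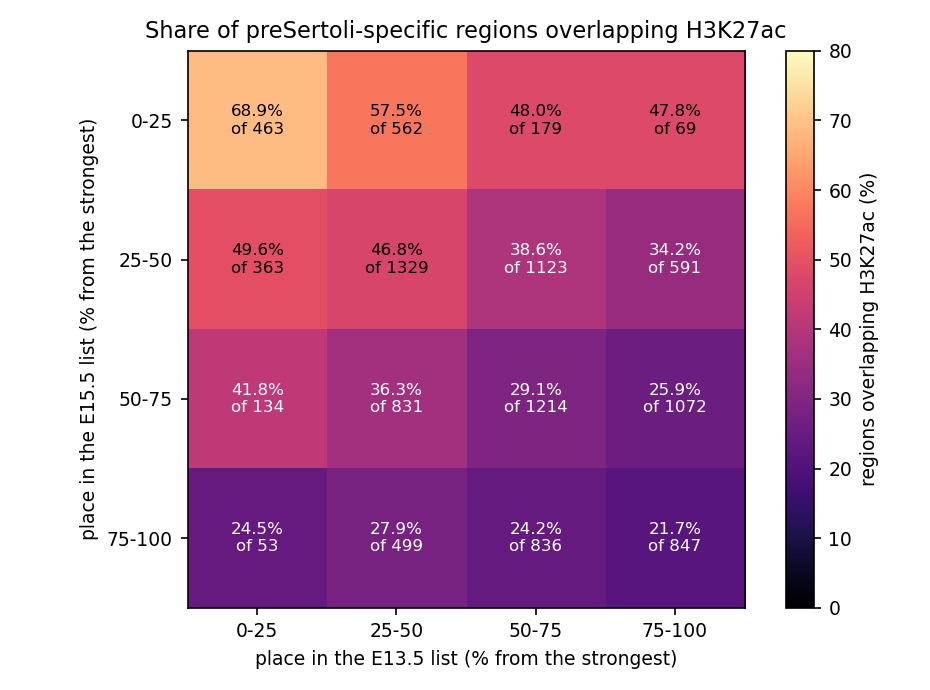
Share of preSertoli-specific regions overlapping an E13.5 H3K27ac domain (colour and printed %), by place in the E13.5 list (horizontal axis) and in the E15.5 list (vertical axis), each in steps of 25% from the strongest peak; the number of regions stands in each cell. The share was 68.9% for regions strong at both stages and 21.7% for those weak at both.

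Wider regions also carried the mark more often, from 20.0% (159 of 794) at up to 200 bp, through 28.0% (1278 of 4568) at 200 to 400 bp and 42.6% (1288 of 3025) at 400 to 600 bp, to 61.7% (330 of 535) at 800 to 1200 bp. Above 1200 bp it was 79.1% (68 of 86; interval 69.3 to 86.3). A wide region has more bases with which to touch a domain, and the part of this in the trend was not tested. Over all widths, 3392 of the 3726 marked regions (91.0%) lay wholly inside H3K27ac domains and 3607 (96.8%) had at least 50% of their length covered. Width and strength move together, and at a width of 200 to 400 bp the share changed little with the E13.5 place (25.9% of only 58 regions in the top 25%, then 30.3%, 27.9% and 26.3%). At 600 to 800 bp it fell from 61.7% in the top 25% to 43.0% in the last.

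The number of other cell types sharing a region had a less simple relation to the mark. Regions open at both preSertoli stages overlapped H3K27ac in 36.7% of cases with no other cell type, 31.3% with 1, 27.9% with 2, 28.9% with 3, 29.8% with 4, 24.8% with 5 and 55.2% with all 6. At a similar place in the E13.5 list the order changed. Between 20% and 40% from the top, preSertoli-specific regions carried the mark in 46.4% of cases (1034 of 2227; interval 44.4 to 48.5), and regions open in all 8 lists in 28.7% (1384 of 4818; 27.5 to 30.0). Between 40% and 60%, the shares were 37.8% (36.0 to 39.6) and 16.2% (14.6 to 18.0), and in the last 20% they were 26.8% (24.9 to 28.8) and 10.7% (7.88 to 14.4). The top 20% alone had the opposite order, with 58.5% (54.3 to 62.6) for preSertoli-specific regions and 74.1% (73.3 to 74.8) for regions open everywhere. Within that step their places were not similar, with median E13.5 places of 15.7% and 8.03% and median E15.5 places of 23.6% and 9.80%. Their median widths there were 650 and 1278 bp, so this step does not compare regions of equal strength. Of the 20859 regions open in all 8 lists, 13109 fell in that top 20%, against 537 of the 10165 preSertoli-specific ones.

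The gaps of 17.7 percentage points between 20% and 40% and of 21.6 between 40% and 60% describe classes that the rule itself separates, and carry no test. The preSertoli-specific regions were the narrower ones (median 504 against 664 bp, and 402 against 509 bp). The gaps shrank to 8.02 and 9.75 points when regions were placed by the E15.5 list, and grew to 29.3 and 28.6 among regions of 300 to 800 bp. Both gaps kept their sign in each of these settings.

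**Figure D3:**
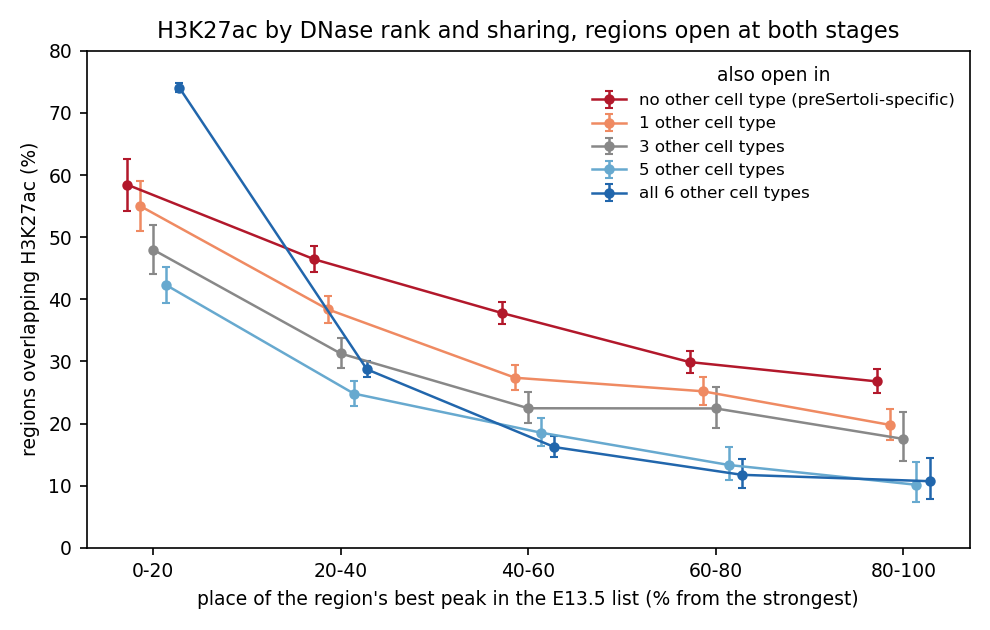
Share of regions open at both preSertoli stages that overlapped H3K27ac (vertical axis, %), by place in the E13.5 list in steps of 20% from the strongest peak (horizontal axis), for regions open in 0, 1, 3, 5 or 6 other cell types; points are shares and bars Wilson 95% intervals. PreSertoli-specific regions lie above the others from 20% onwards, and regions open in all 8 lists are highest, at 74.1%, in the first step.

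Relaxing 1 condition of the rule at a time shows what lies just beyond it. Of regions open at both preSertoli stages and in 1 other cell type, those shared with kidney carried the mark in 40.5% of cases (241 of 595), with heart in 39.6% (400 of 1009), with liver in 39.4% (175 of 444) and with skin fibroblasts in 37.1% (290 of 781). The intervals of these 4 shares, 33.8 to 44.5 in all, overlapped each other and that of the preSertoli-specific regions. Regions shared with ES cells alone stood lower, at 25.3% (852 of 3368; interval 23.9 to 26.8), as did those shared with brain alone, at 28.5% (212 of 743; 25.4 to 31.9). Dropping 1 stage lowered the share further, to 21.1% (2729 of 12917) for regions open at E15.5 only and 12.2% (2088 of 17174) at E13.5 only.

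A region counts as specific when no other list has a peak in it, and another cell type's peak was often near. The nearest region with a peak of any other cell type lay at a median of 1.67 kb from a marked region (upper quartile 3.97 kb) and 2.05 kb from an unmarked one. It was within 1 kb for 1332 marked regions (35.7%) and within 200 bp for 373 (10.0%), against 30.3% and 7.00% of unmarked ones. Without regions that had such a neighbour within 1 kb, 2394 marked regions of 6882 specific ones were left, a share of 34.8% (interval 33.7 to 35.9). The specificity of 1332 marked regions thus concerns a stretch of DNA beside one that another cell type also opened.

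The marked regions lay in 3453 of the 28586 H3K27ac domains (12.1%), which were built from windows of 200 bp. The median domain around a marked region was 3000 bp wide (quartiles 2000 and 4600, range 200 to 27600 bp), counted once per region. PreSertoli-specific openings were about as dense in narrow domains as in wide ones. Domains of up to 1 kb held 59.2 of them per Mb, those of 1 to 2 kb 54.4, of 2 to 4 kb 48.5, of 4 to 8 kb 53.9 and of more than 8 kb 63.3. Regions open in all 8 lists thinned out with domain width over the same steps, from 286 per Mb to 75.6. Of the 374 domains wider than 8 kb, 187 (50.0%; interval 44.96 to 55.04) held at least 1 marked region.

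Within a domain the marked regions sat towards the middle. Of the 3608 whose midpoint lay inside the domain, 1170 (32.4%; interval 30.9 to 34.0) fell in its central 20% and 220 (6.10%; 5.36 to 6.93) in its outer 20%, counted as 10% at each end. Regions open at both stages and in 1 to 5 other lists were close to them, with 28.7% (27.7 to 29.9) in the central part and 8.52% at the ends. Regions open at a single preSertoli stage and nowhere else were spread almost evenly, with 21.7% in the central part and 15.4% at the ends. Those of other cell types only leaned to the ends, with 15.3% in the central part and 27.1% at the ends. Regions open in all 8 lists were the most central, at 39.4%. A region that lies inside a narrow domain cannot have its midpoint close to the edge, so the comparison was repeated in domains wider than 4 kb. There, the central share was 26.1% (300 of 1149; 23.7 to 28.7) for the marked regions, 24.3% (22.5 to 26.2) for regions open in all 8 lists, 22.3% (20.6 to 24.1) for those shared with 1 to 5 other lists, 19.8% (17.9 to 21.9) for those of a single stage and 17.1% (15.7 to 18.6) for those of other cell types only.

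**Figure D4:**
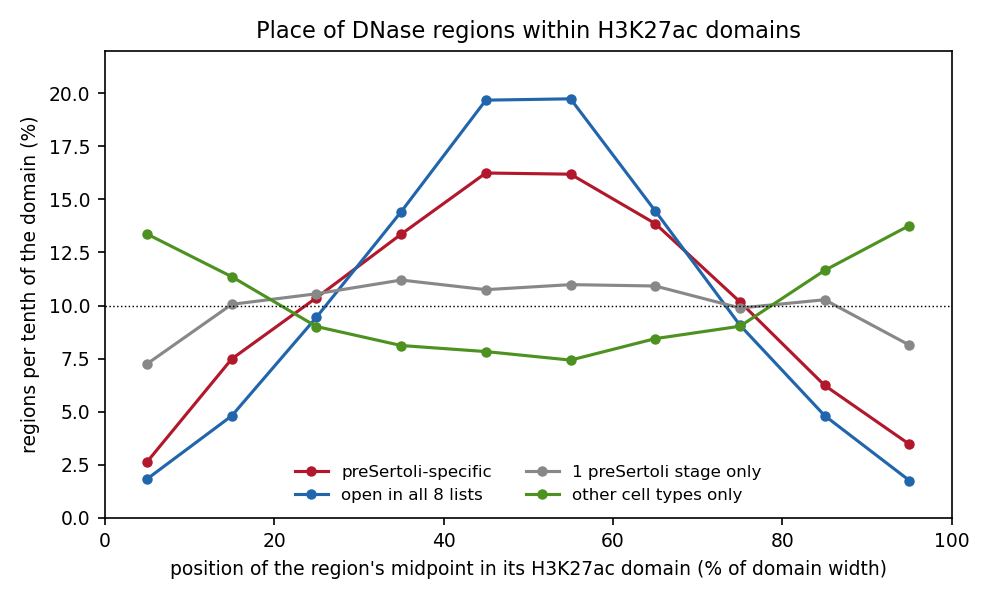
Position of region midpoints along their H3K27ac domain (horizontal axis, % of the domain's width) against the % of regions in each 10% of the domain (vertical axis), for preSertoli-specific regions (3608 midpoints), regions open in all 8 lists, at 1 preSertoli stage only, and in other cell types only; the dotted line marks an even spread. PreSertoli-specific regions peak in the middle with 16.2% in each of the 2 central steps, while regions of other cell types are highest at the ends.

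Most domains with a marked region held 1 of them (3200 of 3453, 92.7%), 236 held 2, and 15 held 3. In 1431 domains (41.4%) the marked region was the sole DNase region of any list, and those domains had a median width of 2000 bp. A sole region was more common in the 19364 domains that held DNase regions but no marked one. Of these, 12024 (62.1%) held exactly 1 region, at a median domain width of 1800 bp. Domains with a marked region were wider than those 19364, at a median of 2800 against 2200 bp. The part of domain width in this difference was not tested. These 1431 regions (38.4% of 3726; interval 36.9 to 40.0) resembled the 2295 with company, with a median width of 453 against 455 bp and a median E15.5 place of 44.0% against 44.3%. Their E13.5 place was slightly better, at 46.2% against 50.2%. In 1940 domains the marked regions shared the domain with regions of another kind. Of these, 954 (49.2%) held a region of other cell types only, 719 (37.1%) a single-stage preSertoli region, 637 (32.8%) a region open at both stages and in 1 to 5 other lists, and 440 (22.7%; interval 20.9 to 24.6) a region open in all 8 lists. A domain can hold several kinds, so these shares add up to more than the whole. Over all 3453 domains with a marked region, 12.7% held a region open in all 8 lists and 27.6% a region of other cell types only. The shares were 54.4% and 29.8% in the 19364 domains with DNase regions but no marked one, which hold another kind by definition.

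On a larger scale, the marked regions lay nearer to other preSertoli-specific regions and to shared regions than the unmarked ones did. By the rule, marked regions can share a domain with such neighbours and unmarked ones lie outside every domain. The part of this in the distances was not tested. The nearest other preSertoli-specific region was a median of 23.3 kb away from a marked region and 30.7 kb from an unmarked one. The nearest region open in all 8 lists was 16.8 kb away (quartiles 5.38 and 46.8 kb) against 23.0 kb (8.08 and 62.7 kb), and within 1 kb in 5.91% against 2.67% of cases. The nearest other marked region was a median of 57.3 kb from a marked region and 126 kb from an unmarked one. Both of these distances run to marked regions, and the spacing of unmarked regions among themselves was not measured. Quartile ranges overlapped in each of these comparisons. Of the unmarked regions, 81 (1.26%) ended within 200 bp of an H3K27ac domain, 251 (3.90%) within 1 kb and 2273 (35.3%) within 10 kb, and their median gap to a domain was 18.0 kb.

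Along the chromosomes the marked share of preSertoli-specific regions ranged from 31.7% on chromosome 11 (229 of 722; interval 28.4 to 35.2) to 42.3% on chromosome 10 (202 of 478; 37.9 to 46.7) among the 19 autosomes. The intervals of these extremes did not overlap, but they are the ends of 19 values, and the intervals of all autosomes except 5, 10 and 11 included the overall 36.7%. The X chromosome had few marked regions. It held 1.97% of H3K27ac domains and 1.34% of all joined regions, but 0.708% of preSertoli-specific regions (72) and 0.617% of the marked ones (23). Of its 562 domains 3.56% held a marked region, against 10.8% to 14.1% on the autosomes. Once specific, an X region carried the mark in 31.9% of cases (23 of 72; interval 22.3 to 43.4), within counting error of the autosomes. The embryos were male by their labels and have 1 X. The sex of the mice and cells behind the other 6 lists is not labelled, and the part of X copy number in these values was not tested. The Y chromosome held 1 marked region.

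**Figure D5:**
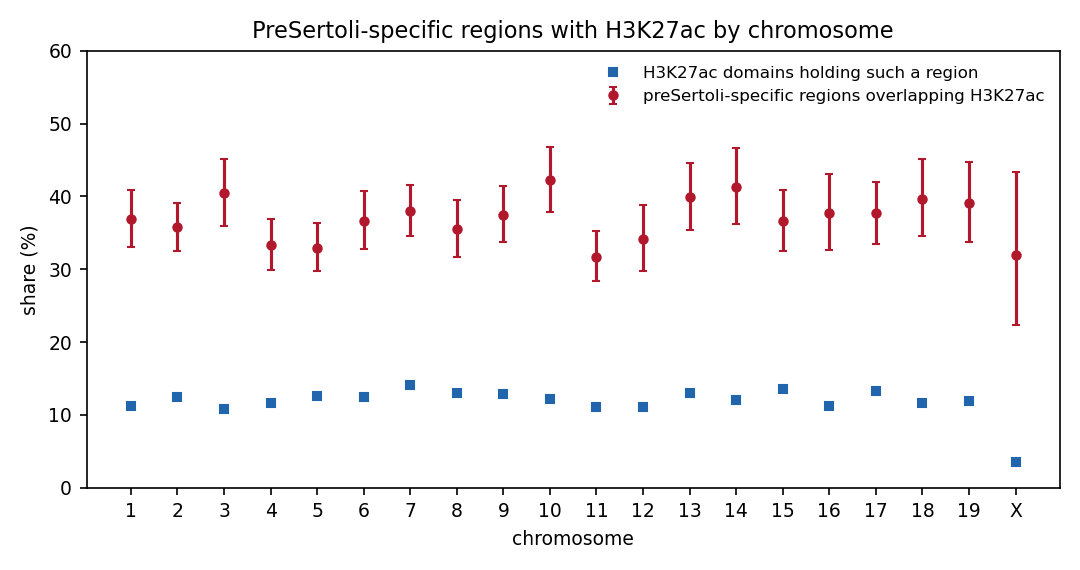
Share of preSertoli-specific regions overlapping H3K27ac (circles with Wilson 95% intervals) and share of H3K27ac domains holding such a region (squares), in % for each autosome and X. The circles range from 31.7% to 42.3% on autosomes, and the square of X lies at 3.56%, below the 10.8% to 14.1% of the autosomes.

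The strongest marked regions were named by their place at the weaker of the 2 stages. The 20 best lay on 10 chromosomes, 5 of them on chromosome 17 and 3 each on chromosomes 5 and 9. Chromosomes 17, 5 and 9 held 4.97%, 6.82% and 6.04% of all marked regions. The 20 regions were 718 to 2333 bp wide (median 893.5 bp), in domains of 1200 to 12600 bp (median 6000 bp). Of them, 19 lay wholly inside the domain, against 91.0% of all marked regions. Signal heights ran from 0.405 to 0.599 at E13.5 and from 0.375 to 0.629 at E15.5. Of the 20, 16 had a better place at E15.5, against 58.5% of all marked regions. Among all marked regions, 129 were in the top 10% at E15.5 and 47 at E13.5, and the part of the choice by the weaker stage was not tested. Of the 20, 6 were the sole DNase region of their domain, against 38.4% of all marked regions. A peak of another cell type lay within 1 kb of 6, against 35.7% of all marked regions.

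The first was chr7:124653421-124654279, with a signal height of 0.566 at E13.5 and 0.489 at E15.5. It was the sole DNase region of a 6000 bp domain and lay close to the domain's middle, with its midpoint 2750.5 bp from the nearer edge. A second region with such a setting was chr14:60296218-60297029, alone in a domain of 6200 bp, with heights of 0.545 and 0.379 and the nearest peak of another cell type 32.7 kb away. The region chr9:115669241-115670409 was strong at both stages (0.533 and 0.513) but lay over the edge of a domain of 1200 bp, which covered 809 of its 1169 bp. On chromosome 17, chr17:24539041-24539794 (0.500 and 0.586) and chr17:24610388-24611176 (0.419 and 0.413) were separated by 70.6 kb. The second of this pair sat in a domain of 12600 bp with 7 DNase regions, 3 of them preSertoli-specific. The remaining chromosome 17 regions were chr17:7370343-7371113, chr17:47959666-47960537 and chr17:49611367-49612587, the last with the highest E13.5 signal of the 20 (0.599, against 0.390 at E15.5).

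Several of the 20 were better placed at E15.5, though within the top 10% of both lists. The region chr11:116487895-116488825 went from 8.79% at E13.5 to 1.49% at E15.5 (0.427 and 0.629), chr4:154658709-154659426 from 9.19% to 1.86% (0.415 and 0.6001), and chr17:24539041-24539794 from 6.27% to 2.06%. Likewise chr5:115996681-115997565 went from 8.36% to 2.69%, chr5:33357898-33358854 from 7.29% to 2.79%, chr9:108019189-108020127 from 7.08% to 2.38% and chr2:31331238-31333060 from 9.67% to 2.86%. The regions chr7:126132613-126133470, chr2:152834834-152835756, chr10:83117110-83118011 and chr1:121301187-121302063 differed less, with E13.5 places of 7.78% to 8.83% and E15.5 places of 5.31% to 6.93%. The region chr9:45136077-45137454 (5.07% and 7.97%) shared a domain of 9800 bp with 2 other marked regions.

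The widest marked region, chr5:109128696-109131028, spanned 2333 bp with 2 peaks at E13.5 and 1 at E15.5 (0.516 and 0.391). It was followed by chr4:136805507-136807540 (2034 bp), chr11:88176988-88178928 (1941 bp, with 2 peaks at each stage), chr12:113525865-113527747 (1883 bp) and chr2:173060061-173061883 (1823 bp). The last 2 each had 1 peak at E13.5 and 2 at E15.5, and their heights went from 0.312 to 0.460 and from 0.138 to 0.275. Over all marked regions, those in domains of 4800 to 27600 bp had a median width of 492 bp and a median E15.5 place of 40.7%, against 438 bp and 45.6% in domains of up to 2000 bp. At E13.5 the places were alike, at 48.8% and 48.3%. Most of the marked regions in the 5 widest domains that held one were narrower and weaker than these medians. The first of these domains, 27600 bp on chromosome 2, held chr2:77761383-77761719 (337 bp, 0.0958 and 0.100), whose midpoint was 649.5 bp from its edge. The domains of 24200, 21800 and 19000 bp held chr18:36010325-36010700 (376 bp), chr14:63868542-63868808 (267 bp) and chr15:96427629-96427882 (254 bp). These had E13.5 places of 75.9%, 79.1% and 88.2%, and chr10:80264896-80266165 (1270 bp, 28.2% and 14.7%), in a domain of 20800 bp, was the exception. Each was the sole marked region among the 5 to 14 DNase regions of its domain.

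The domain with the highest number of marked regions, chr7:147139201-147151800, spanned 12600 bp and held 5 of them among 7 DNase regions. The strongest was chr7:147143751-147144459 (0.308 at E13.5 and 0.309 at E15.5), followed by chr7:147149452-147150251 (0.221 and 0.280), chr7:147146968-147147441 (0.149 and 0.161), chr7:147141165-147142814 (0.127 and 0.163) and chr7:147151086-147151341 (0.0845 and 0.0765). Strong and weak peaks thus lay under the same domain. A domain of 9000 bp at chr5:141133601-141142600 held 4, of which chr5:141137568-141138196 moved up from a place of 55.5% to 25.5% while chr5:141139251-141139424 went from 73.6% to 90.2%. The narrowest domains with 3, and no other DNase region, were chr12:104923601-104928000, chrX:96653801-96659000 and chr10:39993001-39998600. In the first of these, chr12:104924080-104924734 (0.210 and 0.327) and chr12:104925983-104927119 (0.225 and 0.332) had higher signal at E15.5, whereas chr12:104925244-104925725 between them had lower (0.153 and 0.101). Neighbouring regions under 1 domain thus differed in opposite directions between the stage lists. With 1 library per stage, whether such differences would recur is unknown.

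In fixed windows of 100 kb, 2724 windows held a marked region, 716 held 2 or more and 16 held 5 or more. The windows with 2 or more held 46.1% of the marked regions. The fullest, chr13:51800001-51900000, had 6 in 4 domains, with a median E13.5 place of 24.6%, beside 20 regions of other cell types only. Of the 15 windows with 5, those without an unmarked preSertoli-specific region included chr1:9500001-9600000, chr12:70500001-70600000, chr13:37600001-37700000 and chr13:41400001-41500000, which came first by chromosome name among equals. Their median E13.5 places were 71.6%, 56.1%, 24.7% and 33.2%, so dense windows contained both weak and strong peaks.

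The largest shifts between the stages went in both directions. The region chr15:7433240-7434448 was near the end of the E13.5 list (95.6%, height 0.0643) and in the top 10% at E15.5 (9.53%, 0.345), as the sole DNase region of a 2800 bp domain. Regions chr11:52115707-52116359 (0.0645 and 0.305) and chr14:46207838-46208308 (0.0638 and 0.216) shifted likewise. In the other direction, chr9:116654808-116655236 went from 11.2% (0.369) to 98.5% (0.0619), chr1:95638676-95639189 from 11.5% (0.363) to 90.7% (0.0656) and chr9:99310956-99311344 from 19.9% (0.242) to 91.8% (0.0651). By the rule, each lay in an E13.5 H3K27ac domain. They are the extremes of 3726 regions in single libraries, and no replicate shows whether such a shift would recur.

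At the limit of the H3K27ac rule, the regions chr7:86722494-86723002, chr10:67034597-67035285 and chr10:38882524-38882806 were included with 2, 4 and 6 bp inside a domain. The regions chr15:83529377-83529999, chr9:65537244-65537997 and chr5:72657810-72658020 were left out with gaps of 1, 3 and 9 bp. Their E13.5 places of 32.4% to 62.0% inside the limit and 41.3% to 67.02% outside it overlapped. At the limit of the DNase threshold, the weakest marked region had a place of 99.98% at E13.5, and 10% of the marked regions lay beyond 85.0% at E13.5 or beyond 81.0% at E15.5, each stage counted by itself.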

How the data were processed

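DNase-seq was measured in 8 libraries, H3K27ac in 2 ChIP libraries with 2 inputs, and RNA in 3 libraries. The files are in build mm9. The submitters' processing notes list BWA (0.6.1-r104), SAMtools and bedtools for DNase-seq. For ChIP-seq they list SICER, Bowtie and CASAVA (1.8.2), and for RNA-seq RSEM (1.2.0), Bowtie (0.12.7) and the same CASAVA version. The peak caller was not given in the sources used here, nor were its threshold and the read depth. The deposited peak lists have no header. From their values, each peak has the authors' score (at most 1000), the authors' signal height and the authors' −log10 p (1.3 to 16). Peaks were ranked within a list by score, then signal height, so ranks from lists of different length are only relative. The H3K27ac list deposited by the authors gives positions without values, as 1 list for both libraries. Domain ends, given as the last base of a window, were taken as inclusive. The deposited RNA table holds square roots of scaled expected counts, per the file headers and the labels. They were squared and scaled to each library's total (CPM), after dropping 426 repeated rows.

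Merging and overlaps were computed in Python with pandas 2.3.3 and scipy 1.17.1, tested on simulated lists and checked against bedtools 2.31.1. Shares have Wilson intervals, which cover counting error only and treat regions as independent, although neighbours are not. No p-values were computed, since each DNase group is 1 library. The 3 RNA libraries are independent pools of sorted cells per the labels. The regions, gene lists and alternatives were chosen with earlier results of these data known. Named regions were the 20 best placed at their weaker stage, the 5 widest, and those in the 5 widest domains that hold one. The 5 domains and 5 windows of 100 kb with most marked regions were also named. Ties among domains went by fewer other regions, then width. Ties among windows went by fewer unmarked preSertoli-specific regions, then name. Also named were the 3 largest shifts each way and the 3 nearest each side of the H3K27ac limit. Alternatives for gene starts, nearest genes and motifs were not run, because an mm9 annotation and genome were not used here.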

Additional observations from a re-analysis of the deposited data

How the results depend on the processing

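The number of marked regions stayed within 1.5 times of 3726 with at least 50% of the region covered (3607), the higher-scoring part of each list (2556), equal numbers of peaks (2966), direct overlap of the stage peaks (3724), peaks within 200 bp joined (3372) and the midpoint inside a domain (3608), and fell to 2394 without regions that had another cell type's peak within 1 kb. The last 2 settings were chosen after seeing the data, as were all settings for the central share and the rank-matched gaps. The marked share of 36.7% moved to 49.8% with the higher-scoring part, 42.3% with equal numbers, and 35.5%, 35.5%, 35.5% and 34.8% with 50% coverage, joining within 200 bp, the midpoint rule and the 1 kb rule. The share alone in their domain (38.4%) moved to 56.3%, 45.2% and 46.3% with the higher-scoring part, equal numbers and joining within 200 bp, which leave fewer regions to share a domain. The central share of 32.4% moved to 34.5% with the higher-scoring part and 34.5% with equal numbers. The rank-matched gaps of 17.7 and 21.6 points moved to 14.2 and 25.8 with the higher-scoring part. That part ends 50% down each full list, so its second gap covers places from 40% to 50% only and is not like for like. The gaps moved to 8.02 and 9.75 by E15.5 place, and to 29.3 and 28.6 at 300 to 800 bp. The cause of these moves was not tested. Leaving out an RNA library gave 15 to 16 expressed transcription factors of 18, 29 of 29 effector genes and 10 of 11 basement membrane and junction genes. No paired analysis was possible because no result comes from a test between groups. Read depth, which sets how many weak peaks were called, is unknown for every list.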
